A study of Elaeis guineensis with 18 samples.

Results

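LOC105051804 and LOC105051821 are 2 oil palm (Elaeis guineensis) genes that the study placed under the gene ontology term DNA replication. They were selected by gene number (105051804 and 105051821), as 2 of the 30 genes listed under that term for cold, and they are 2 of the 30606 genes in the tables. That list was drawn from genes already called as differentially expressed (DEGs) between cold-treated and control leaves of these libraries, so the difference between cold and control chose both genes, and it is given below as a description without a test. Beyond the term itself the sources used here hold no description of either gene, and neither is assigned a protein or a role. Both passed the filter on low counts, as did all 28 other genes of the list.

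DNA replication copies the genome ahead of cell division. Origins are marked by the origin recognition complex, opened by the MCM helicase, and copied by DNA polymerases that are held on the template by the sliding clamp PCNA, with primase, clamp loader, single-strand binding proteins and ligase completing the work. In a leaf this takes place in the dividing cells of young tissue and in cells that recopy their genome without dividing, while chloroplasts and mitochondria copy their own DNA with separate enzymes.

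The leaves came from wild-type Deli Dura seedlings, 6 months old when planted, that were acclimatized at 28 °C for 1 month and then treated for 2 weeks. Each of the 3 biological replicates per group was the third leaf of 3 seedlings, pooled. Control seedlings received 200 mL of water daily at 28 °C, drought-treated seedlings 0 mL at 28 °C, and salinity-treated seedlings 200 mL of 0.2 M NaCl at 28 °C. Waterlogged seedlings, labelled flood, stood at 28 °C in water 1 inch above the soil, and heat-treated and cold-treated seedlings received 200 mL of water at 40 °C and 10 °C. One planting material, one leaf position and one time point were sampled, and in bulk leaf RNA a change in the share of cells that express a gene cannot be told apart from a change in RNA per cell. The 18 libraries held 14839345 to 22126971 counts. All 21 light-harvesting genes, markers of photosynthetic leaf cells, had reads in every group, and their summed level was 13607 to 17146 CPM, the read count scaled to a common library size, in cold libraries and 26774 to 136295 CPM in the other 15. The part of that difference in the values below was not tested, and markers of dividing cells were not analysed here.

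Both genes had their highest level in cold-treated leaves. LOC105051804 stood at 40.4, 42.4 and 43.2 CPM in the cold libraries, where CPM is relative to library totals scaled by edgeR's TMM factors, and at 11.6, 11.4 and 8.20 CPM in control leaves. The cold libraries were 4.05-fold above control leaves (log2 fold change, log2FC, of 2.02, SE 0.18). The highest of the 15 other libraries was drought replicate 3 with 17.1 CPM, so that the lowest cold library was 2.36 times as high as that library. In the deposited FPKM, which is relative to gene length and unscaled library total, the ratio to the same library was 3.6.

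LOC105051821 differed less between the treatments. It stood at 37.5, 40.7 and 38.9 CPM in the cold libraries and at 18.1, 17.3 and 16.3 CPM in control leaves, a 2.26-fold difference (log2FC 1.18, SE 0.11). The highest library outside cold was waterlogging replicate 1 with 35.0 CPM, and the lowest cold library was 1.07 times that value. In FPKM the nearest library was heat replicate 1, with 19.8 against 35.6 in the lowest cold library, a ratio of 1.80. The 3 cold libraries were thus above all 15 others for both genes, which was also the case for 12.7% of all genes tested. These values rest on 1069 to 1150 reads of LOC105051804 and 1025 to 1036 reads of LOC105051821 per cold library. The coefficient of variation of the CPM over the 3 libraries of a group ran from 3.44% in cold to 24.7% in heat for LOC105051804 and from 4.06% in cold to 16.0% in waterlogging for LOC105051821.

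**Figure D1:**
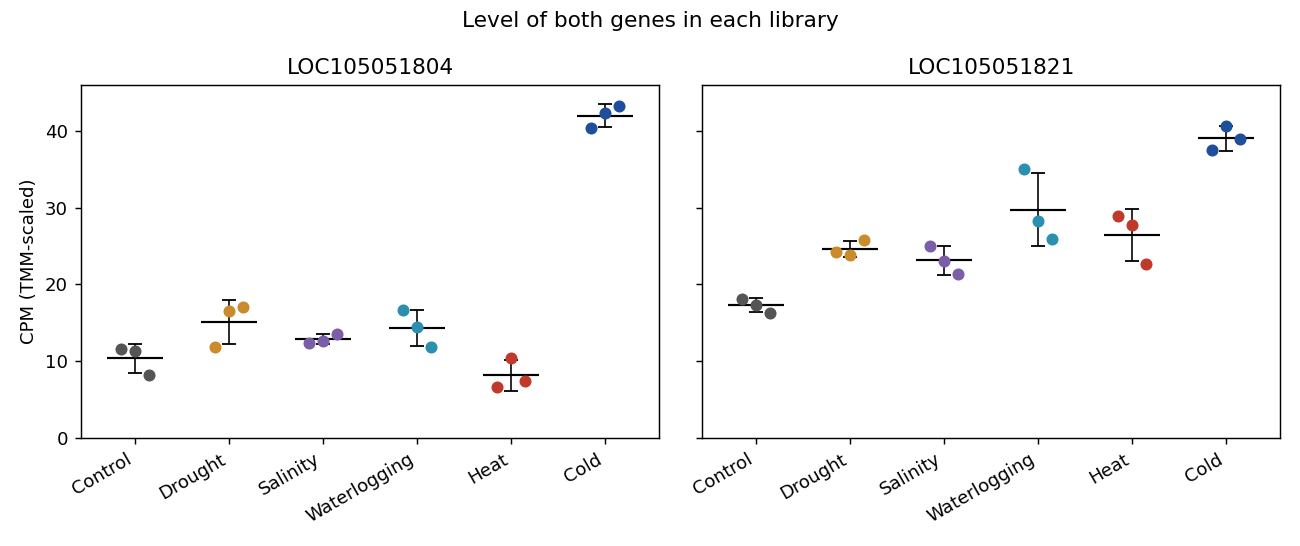
CPM after TMM scaling (y axis) of LOC105051804 (left) and LOC105051821 (right) in each library of the 6 groups (x axis); points are libraries, long bars the mean and short bars the SD over 3 libraries. The cold libraries lie at 40.4 to 43.2 CPM and 37.5 to 40.7 CPM, and the nearest other library lies at 17.1 CPM for the first gene and 35.0 CPM for the second.

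Outside cold, LOC105051804 ranged from 6.65 to 17.1 CPM. Its 3 libraries stood at 11.9, 16.5 and 17.1 CPM under drought and at 12.4, 12.6 and 13.6 CPM under salinity. Waterlogged leaves gave 16.7, 14.4 and 11.9 CPM and heat-treated leaves 6.65, 10.4 and 7.33 CPM. On this scale the drought, salinity and waterlogging libraries were all above the 3 control libraries, whereas the heat libraries overlapped with them. The margin was small, with 11.9 CPM in the lowest drought and waterlogging libraries against 11.6 CPM in control replicate 1. In FPKM the libraries of each of these stresses overlapped with the control libraries. How many of all genes show such a separation was not counted. The order of the group means ran from heat (8.14 ± 2.01 CPM, SD, n = 3) through control (10.4 ± 1.89), salinity (12.9 ± 0.65), waterlogging (14.3 ± 2.39) and drought (15.1 ± 2.86) to cold (42.0 ± 1.45). No difference between neighbours among the first 5 groups in this order passed the edgeR quasi-likelihood test, with adjusted p of 0.131, 0.193, 0.688 and 0.800 from the lowest pair upwards.

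LOC105051821 was lowest in control leaves. It stood at 24.2, 23.8 and 25.8 CPM under drought and at 25.0, 23.1 and 21.3 CPM under salinity. Waterlogging gave 35.0, 28.3 and 25.9 CPM and heat 28.9, 27.7 and 22.6 CPM. With TMM scaling every stressed library was thus above every control library. In FPKM the salinity libraries overlapped with the control libraries. The share of all genes with such a separation was not counted. The group means ran from control (17.3 ± 0.91 CPM, SD, n = 3) through salinity (23.1 ± 1.87), drought (24.6 ± 1.07), heat (26.4 ± 3.35) and waterlogging (29.7 ± 4.75) to cold (39.0 ± 1.58). Control and salinity differed with TMM scaling (edgeR, adjusted p = 0.00781) and did not pass with library totals (adjusted p = 0.411). That contrast shares the control libraries with the one that chose the gene. The next neighbours did not pass the test, with adjusted p of 0.681 for salinity and drought, 0.497 for drought and heat and 0.250 for heat and waterlogging.

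Levels of the 2 genes can be compared with each other only per length. The length behind the deposited FPKM was 3.90 kb for LOC105051804 and 1.43 kb for LOC105051821. In control leaves the FPKM was 2.95 ± 0.58 (SD, n = 3) for LOC105051804 and 13.3 ± 1.01 for LOC105051821, and in cold-treated leaves it was 14.6 ± 0.46 and 37.0 ± 1.43. Over all 18 libraries LOC105051821 had the highest mean FPKM of the 30 listed genes (19.3), and LOC105051804 was the tenth with 4.85. FPKM is scaled by the library total, and the choice matters here: with library totals the median log2FC of all genes was −0.33 in drought-treated, −0.36 in salinity-treated, −0.46 in waterlogged, −0.14 in heat-treated and 0.31 in cold-treated leaves. With TMM scaling it was −0.05 to 0.02, and all log2FC given here are relative to that unless library totals or FPKM are named.

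The study compared each stress with control leaves. These contrasts share the control libraries with the one that chose the genes. Control values of these genes that were low by sampling would therefore raise the log2FC under every stress. Neither gene was a DEG under drought, salinity, waterlogging or heat, a DEG being a gene that differed by 2-fold or more with an edgeR adjusted p below 0.05. Of all genes tested, 10.7% were upregulated DEGs and 6.93% downregulated DEGs in drought-treated leaves. These shares were 10.5% and 4.91% for salinity, 12.1% and 7.53% for waterlogging, and 11.5% and 8.66% for heat.

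By the adjusted p alone, LOC105051821 was higher than in control leaves under all 4 of these stresses. Its log2FC was 0.51 under drought (SE 0.11, adjusted p = 0.00219), 0.42 under salinity (SE 0.11, adjusted p = 0.00781), 0.79 under waterlogging (SE 0.11, adjusted p = 5.64e-05) and 0.61 under heat (SE 0.11, adjusted p = 0.000411) in edgeR's quasi-likelihood test. The shares of all genes that were higher by the adjusted p alone were 21.6%, 20.6%, 24.1% and 25.5% in the same order. The calls under drought, waterlogging and heat held with library totals in place of TMM, where the log2FC was 0.23, 0.36 and 0.46, and the salinity call was lost, with a log2FC of 0.10 and an adjusted p of 0.411. In FPKM the salinity libraries (13.3 to 15.1) overlapped with the control libraries (12.4 to 14.4), and those of drought (15.3 to 16.1), waterlogging (15.9 to 19.2) and heat (16.7 to 19.8) did not.

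For LOC105051804 the same test gave a log2FC of 0.54 under drought (SE 0.18, adjusted p = 0.0263) and of 0.46 under waterlogging (SE 0.18, adjusted p = 0.0492). Under salinity it was 0.31 (95% interval −0.08 to 0.70, adjusted p = 0.193) and under heat −0.35 (95% interval −0.74 to 0.04, adjusted p = 0.131). These values depend on the scaling, and the drought and waterlogging calls also on the libraries fitted. With library totals the log2FC was 0.26 under drought (adjusted p = 0.221), 0.04 under waterlogging (adjusted p = 0.847) and −0.02 under salinity. The difference from control was then −0.50 for heat and passed the test (adjusted p = 0.0274). The drought call was also lost without drought replicate 2 or 3 or control replicate 3, where the adjusted p reached 0.116, and the waterlogging call was lost in 13 of the 18 fits that left out a library.

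**Figure D2:**
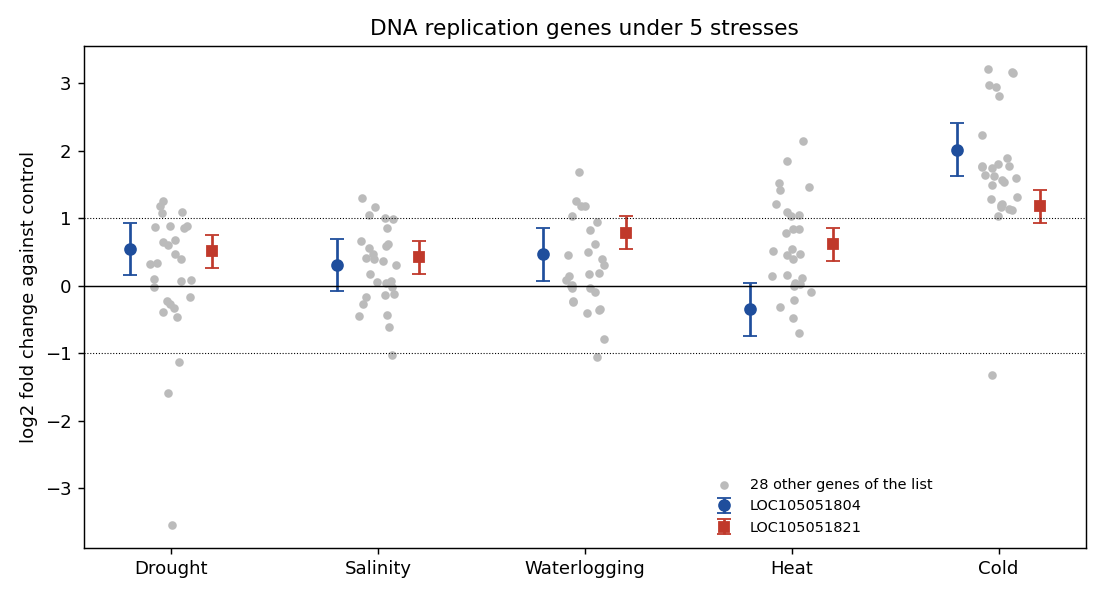
log2FC against control (y axis) under the 5 stresses (x axis) for LOC105051804 (circles) and LOC105051821 (squares), with 95% intervals from the edgeR fit, and for the 28 other genes of the list (grey points, with no interval); dotted lines mark a 2-fold change. Both genes lie within the 2-fold lines under the first 4 stresses and above them under cold, at 2.02 and 1.18, and LOC105051804 lies below 0 under heat, at −0.35; the lowest grey point under drought is LOC105041377, which had 0 reads there, and is no measure of size.

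Comparisons among drought, salinity, waterlogging and heat set no control or cold library against another, although the scaling and the spread behind each p were estimated from all 18 libraries. LOC105051804 was lower in heat-treated leaves than under each of the other 3 stresses. The log2FC was 0.89 for drought against heat (SE 0.18, adjusted p = 0.00137), 0.66 for salinity against heat (SE 0.18, adjusted p = 0.0112) and 0.81 for waterlogging against heat (SE 0.19, adjusted p = 0.00278), each short of 2-fold. Of all genes tested, 20.5%, 17.8% and 20.0% were lower under heat in these contrasts by the adjusted p alone. In fits of only the 6 libraries compared, the adjusted p was 0.0133, 0.0279 and 0.0311. The drought and waterlogging calls held under every scaling, test and left-out library that was tried. The salinity call was lost on log2(FPKM + 1) (log2FC 0.35, adjusted p = 0.0538) and without heat replicate 1 (adjusted p = 0.0632).

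LOC105051821 gave no call in these contrasts. Against heat its log2FC was −0.10 for drought (95% interval −0.34 to 0.14), −0.19 for salinity (−0.43 to 0.05) and 0.17 for waterlogging (−0.07 to 0.41), with edgeR adjusted p of 0.497, 0.202 and 0.250. Between salinity and waterlogging the log2FC was −0.36 (95% interval −0.60 to −0.12, adjusted p = 0.120), and that between drought and waterlogging was −0.27 (95% interval −0.52 to −0.03, adjusted p = 0.102). Both passed without waterlogging replicate 3, with an adjusted p of 0.0378 and 0.0380. The salinity difference from heat passed with library totals (log2FC −0.37, adjusted p = 0.00539).

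Cold-treated leaves were also above each other stress. The log2FC of LOC105051804 was 1.47 (SE 0.18) against drought, 1.71 (SE 0.18) against salinity, 1.55 (SE 0.18) against waterlogging and 2.37 (SE 0.19) against heat. For LOC105051821 it was 0.67 (SE 0.11), 0.75 (SE 0.11), 0.39 (SE 0.11) and 0.56 (SE 0.11) in the same order. The cold libraries chose the genes, so no test is given. Library totals raised these differences to between 2.05 and 2.81 for LOC105051804 and between 1.01 and 1.37 for LOC105051821.

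The ratio between the genes within a library does not depend on how libraries are scaled, and it was taken after their values had been seen. LOC105051804 had 0.234, 0.241 and 0.185 of the FPKM of LOC105051821 in the 3 control libraries. The ratio was 0.395, 0.383 and 0.407 in the cold libraries, higher than in any other library, and 0.0844, 0.138 and 0.119 in the heat libraries, lower than in any other. In between, the libraries of drought (0.180 to 0.254), salinity (0.181 to 0.234) and waterlogging (0.168 to 0.187) overlapped with control leaves. The mean ratio under heat, 0.114 ± 0.027 (SD, n = 3), was lower than those under drought (0.225 ± 0.040), salinity (0.205 ± 0.027) and waterlogging (0.177 ± 0.010), with p = 0.1 in each of the 3 two-sided exact permutation tests (adjusted p = 0.1). That is the smallest p that 3 libraries against 3 can give.

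**Figure D3:**
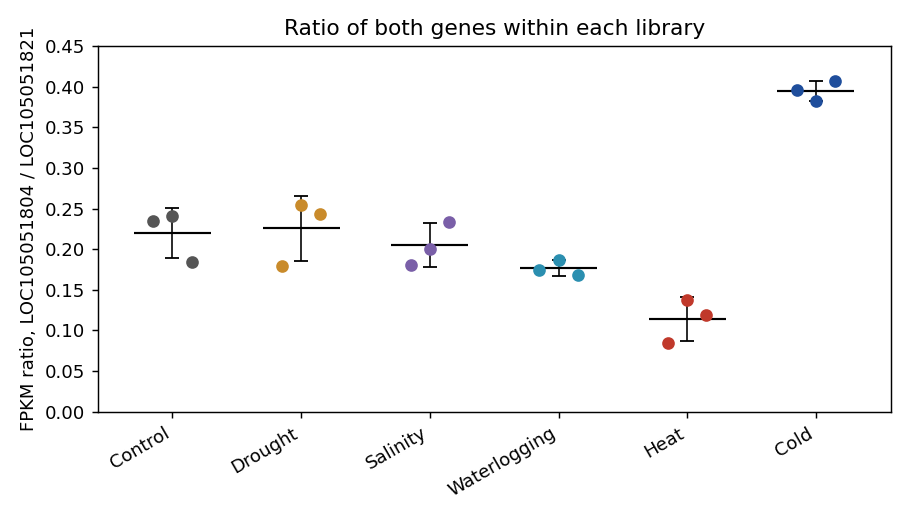
FPKM of LOC105051804 divided by FPKM of LOC105051821 (y axis) in each library of the 6 groups (x axis); points are libraries, long bars the mean and short bars the SD over 3 libraries. The cold libraries lie at 0.383 to 0.407 and the heat libraries at 0.0844 to 0.138, with all other libraries between 0.168 and 0.254.

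Among the 28 other listed genes 27 were higher and 1, LOC105034434, was lower under cold, where 13.1% and 12% of all genes were called in these directions, but these calls made the list. Their median log2FC under cold was 1.63, against 0.02 for all genes. LOC105051804 ranked eighth of the 30 and LOC105051821 was number 25, not far from the 2-fold minimum that made the list. The gene nearest to that minimum among those higher under cold, LOC105045099, had a log2FC of 1.03, and genes of the term outside the list were not analysed here. In 22 of the 28 genes, chosen for their cold calls, all 3 cold libraries were above the other 15, against 12.7% of all genes. LOC105054821 stood at 39.7 ± 4.25 CPM in cold-treated and 5.14 ± 1.21 CPM in control leaves (log2FC 2.95, SE 0.27). It was also an upregulated DEG under heat, at 13.8 ± 1.30 CPM (log2FC 1.42, SE 0.26, edgeR adjusted p = 0.000375). LOC105039319 rose to 26.4 ± 1.18 from 11.8 ± 2.32 CPM and had log2FC of −0.14 to 0.11 under the 4 other stresses.

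In heat-treated leaves 8 of the 28 genes (28.6%) were upregulated DEGs, against 11.5% of all genes, and 0 were downregulated ones by edgeR or DESeq2 (1 by the unadjusted p), against 8.66%. Their median log2FC was 0.49, against 0.00 for all genes, and with library totals it was 0.35, against −0.14 for all genes. In the order of log2FC under heat LOC105051804 was number 28 of the 30 and LOC105051821 number 13. LOC105055843 rose from 6.31 ± 1.5 to 22.7 ± 2.63 CPM (log2FC 1.85, SE 0.16, edgeR adjusted p = 3.32e-07), close to its cold level of 21.3 ± 0.98 CPM. LOC105051310 rose from 0.965 ± 0.22 to 4.29 ± 0.81 CPM (log2FC 2.15, SE 0.43, adjusted p = 0.00082). The lowest value belonged to LOC105039933, whose log2FC was −0.69 (SE 0.14, adjusted p = 0.000763), short of 2-fold, and 23.9% of all genes were lower by the adjusted p alone. These counts depend on the scaling, with 5 upregulated DEGs for library totals and 3 on log2(FPKM + 1). Among all genes heat gave 4796 DEGs with TMM (57.0% of them upregulated), 4901 with totals (45.3%) and 3095 on log2(FPKM + 1). The counts of listed genes share the control libraries with the contrast that made the list.

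Under drought 3 of the 28 genes (10.7%) were upregulated and 1 downregulated, under salinity 3 and 0, and under waterlogging 4 (14.3%) and 1. These shares are close to those of all genes, and the median log2FC was 0.33, 0.34 and 0.15, against −0.05, −0.04 and −0.05 for all genes. With library totals 0, 0 and 1 were upregulated and the medians were 0.05, 0.0028 and −0.26, against −0.33, −0.36 and −0.46 for all genes. With these totals all genes gave 4781, 4467 and 6013 DEGs, of which 39.4%, 38.4% and 28.9% were upregulated. None of the 28 genes was downregulated under salinity by DESeq2 either, and 1 passed in that direction by the unadjusted p. LOC105051384 was an upregulated DEG under all 4 stresses besides cold, from 4.12 ± 0.43 CPM in control leaves to 13.2 ± 3.44 under waterlogging (log2FC 1.68, SE 0.19, edgeR adjusted p = 4.88e-06). LOC105041722 fell from 1.07 ± 0.23 to 0.356 ± 0.14 CPM under drought (log2FC −1.59, SE 0.48, adjusted p = 0.014). LOC105041377 had 0 reads in the 3 drought libraries and 4 in the 3 control libraries, too few to give a fold. Of the 30 genes, 11 were DEGs under at least 1 of these 4 stresses, as were 35.8% of all genes tested, and neither LOC105051804 nor LOC105051821 was among them.

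**Figure D4:**
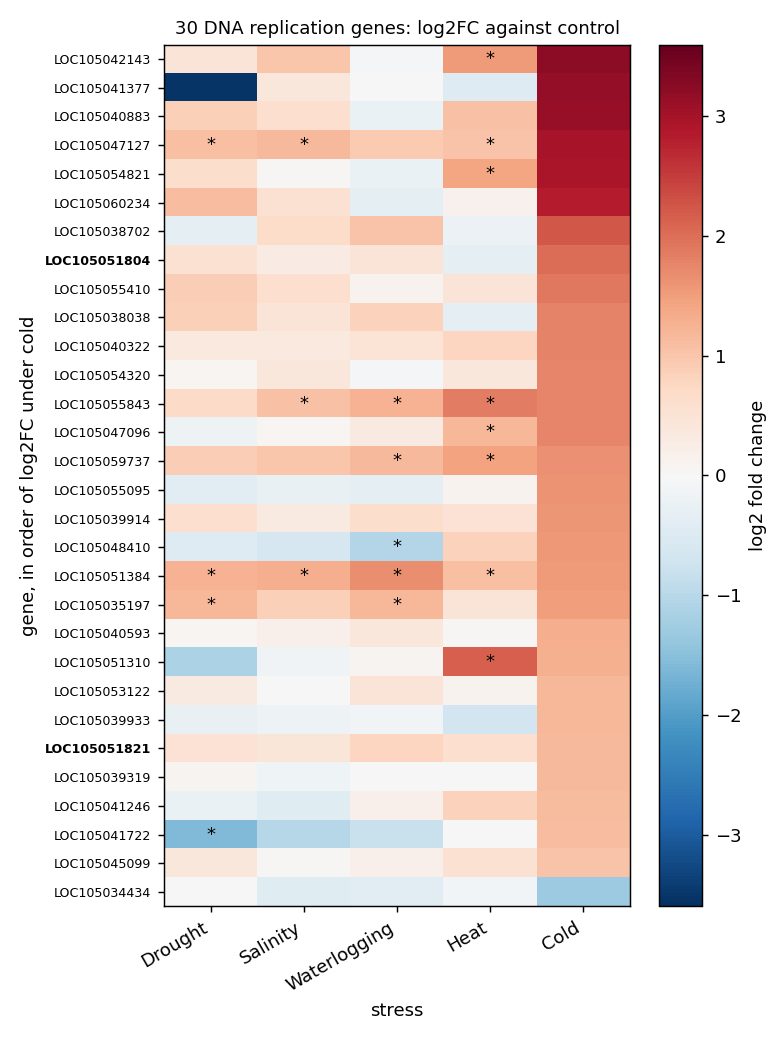
log2FC against control (color) of the 30 listed DNA replication genes (y axis, in order of log2FC under cold) under the 5 stresses (x axis), with LOC105051804 and LOC105051821 in bold; asterisks mark DEGs under the stresses other than cold. Asterisks stand in the rows of 11 genes, 8 of them under heat, and in neither bold row; the dark drought cell of LOC105041377 comes from 0 reads and is no measure of size.

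Likeness of pattern was measured as the root mean square difference between the log2 CPM means of the 6 groups, each gene centred on its own mean. The difference between both genes was 0.53. The median over the 23829 other tested genes was 0.54 from LOC105051821 and 0.84 from LOC105051804. The gene most like LOC105051804 was LOC105060960 (0.11), followed by LOC105056612 (0.12), LOC105043650 (0.13), LOC105053980 (0.14) and LOC105032594 (0.14). LOC105056612 had a log2FC of 2.24 under cold and −0.11 under heat. Most like LOC105051821 were LOC105054434 (0.07), LOC105038007 (0.08), LOC105048763 (0.08), LOC105037818 (0.08) and LOC105058146 (0.08), and LOC105054434 had log2FC of 0.61, 0.40, 0.66 and 0.53 under drought, salinity, waterlogging and heat and of 1.08 under cold. None of these 10 genes is in the DNA replication list. That list holds 30 of the 23830 genes tested, so 10 genes are too few to show whether its genes are nearer than others. The nearest listed gene was LOC105038038 for LOC105051804 (0.23, number 26 in the order of likeness) and LOC105039914 for LOC105051821 (0.20, number 451).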

How the data were processed

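The authors aligned clean reads with TopHat2 v2.0.12 to the published oil palm reference genome, which they identified by a project accession, and counted them per gene with HTSeq. The deposited counts are whole, unnormalized numbers. The deposited FPKM values are these counts divided by gene length and library total. Not given in the sources used here were HTSeq's version, its strand setting and the assembly version. Reads of antisense or near-identical genes may therefore be shared. Groups came from the treatment label. Counts were fitted in R 4.3.3 with edgeR 4.0.16: filterByExpr left 23830 genes, TMM factors ran from 0.783 to 1.36 (1.35 to 1.36 in cold), and 1 quasi-likelihood model of all 18 libraries had 12 residual degrees of freedom. Adjusted p are Benjamini-Hochberg values over all genes of a contrast, and the SE is the log2FC over the square root of F. The code was tested on simulated data. Alternatives used DESeq2 1.42.0, limma 3.58.1 and other scalings, filters and library sets. Libraries of 1 group differed by more than sampling noise (chi-square over degrees of freedom 16.1 to 90.9). Intervals cover the spread between libraries. The genes and lists were chosen with earlier results of these data known. Named are both genes, some of the listed genes that are most abundant, extreme or DEGs outside cold, and the 5 genes most like each. A gene table of assembly EG11 gave gene order. All sample columns were used.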

Additional observations from a re-analysis of the deposited data

How the results depend on the processing

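Scaling by DESeq2 size factors and the DESeq2 Wald test kept every call and direction of LOC105051804 and LOC105051821. Library totals and limma on log2(FPKM + 1) or log2(FPKM + 0.1), which also rest on totals, moved the most, and values are given in that order. For LOC105051804 drought minus control fell to 0.26, 0.20 and 0.26 and waterlogging minus control to 0.043, 0.038 and 0.052, salinity minus control reversed to −0.017, −0.0045 and −0.0022, and heat minus control passed at −0.50, −0.36 and −0.49. Salinity minus heat was 0.35 on log2(FPKM + 1). Fits of only the 6 libraries of a contrast lost drought (0.57, adjusted p = 0.0510) and waterlogging (0.46, adjusted p = 0.0902), and the fit without a count filter lost waterlogging (0.46, adjusted p = 0.0587). For LOC105051821 salinity minus control was lost at 0.096, 0.090 and 0.096, salinity minus heat passed at −0.37, −0.34 and −0.36, and waterlogging minus heat reversed to −0.098, −0.094 and −0.099. Cold minus control became 2.31 and 2.29 (totals and log2(FPKM + 0.1)) for LOC105051804 and 1.47, 1.41 and 1.46 for LOC105051821. For LOC105051804 cold was above drought by 2.05, 1.79 and 2.03, above salinity by 2.32, 2.0 and 2.29, above waterlogging by 2.26, 1.95 and 2.24, and above heat by 2.81 and 2.77 (totals and log2(FPKM + 0.1)). For LOC105051821 these values were 1.24, 1.19 and 1.23, then 1.37, 1.32 and 1.37, then 1.10, 1.07 and 1.10, then 1.01, 0.97 and 1.01. The mean CPM with totals was 11.4 in salinity, 11.8 in waterlogging and 56.9 in cold for LOC105051804, and 19.1, 22.4, 20.4, 24.6 and 52.9 in control, drought, salinity, waterlogging and cold for LOC105051821. Upregulated DEGs among the 28 other genes numbered 0, 0 and 0 under drought, 0, 0 and 0 under salinity, 1, 0 and 1 under waterlogging, 5, 3 and 5 under heat, and 16 under cold on log2(FPKM + 1). Downregulated ones numbered 3 and 0 under drought (totals, log2(FPKM + 1)), 1 and 1 under salinity (totals, log2(FPKM + 0.1)), 2, 0 and 2 under waterlogging, and 0 and 0 under cold (both FPKM scales). By the adjusted p alone 5, 5, 6 and 11 of the 28 were higher under drought, salinity, waterlogging and heat. The shares of all genes were 21.6%, 20.6%, 24.1% and 25.5%. Under heat 1 of the 28 was lower, against 23.9% of all genes. Among all genes, DEGs in either direction under drought, salinity, waterlogging, heat and cold numbered 4209, 3683, 4668, 4796 and 5963 with TMM. With totals they numbered 4781, 4467, 6013, 4901 and 6635. On log2(FPKM + 1) there were 2940, 2617, 3517, 3095 and 4436, and on log2(FPKM + 0.1) 4510, 4223, 5833, 4716 and 6434. With TMM 60.8%, 68.2%, 61.5%, 57.0% and 52.2% of these DEGs were upregulated, and with totals 39.4%, 38.4%, 28.9%, 45.3% and 72.0% were. Directions on the FPKM scales were not counted for all genes. The cause of these moves beyond the scaling was not tested. Leaving out 1 library at a time gave, for LOC105051804, 0.40 to 0.70 for drought minus control, 0.32 to 0.58 for waterlogging minus control, −0.57 to −0.21 for heat minus control (called without control replicate 3 or heat replicate 2), −0.038 to 0.23 for drought minus waterlogging (reversed without drought or waterlogging replicate 3) and 0.52 to 0.88 for salinity minus heat. For LOC105051821 it gave −0.36 to −0.14 for drought minus waterlogging and −0.45 to −0.23 for salinity minus waterlogging. Downregulated DEGs among the other genes ranged from 0 to 2 under drought, 0 to 1 under salinity and 0 to 1 under waterlogging. Replicate numbers did not pair the libraries: deviations of same-numbered libraries correlated above 0.1 in 12 of 45 pairs (median −0.02), those of other numbers in 27 of 90. With a replicate block LOC105051804 under waterlogging had 0.47 (adjusted p = 0.0515), and no other call of either gene changed. The fewest reads of LOC105051804 were found under heat, 137 to 223 per library. The counting error there, 1 over the square root of the reads, averaged 7.72%, against a coefficient of variation of 24.7% between the libraries.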

Other observations

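In the gene table of assembly EG11, which is not known to be the one the reads were aligned to and is used for order only, LOC105051804 and LOC105051821 lie on the same chromosome with 21 genes between them, and no other gene of the table overlaps either. Of those 21 genes 11 were tested, and 0 were DEGs under cold in either direction by edgeR, against 13.1% of all genes that were upregulated DEGs and 12% that were downregulated ones. By an unadjusted p under 0.05 alone 5 of the 11 were higher and 4 lower, against 30.4% and 29.7% of all genes. Next to LOC105051804, LOC105051805 stood at 28.2 CPM in control and 36.8 CPM in cold-treated leaves (log2FC 0.39, SE 0.17, edgeR adjusted p = 0.0635). On its other side LOC105051803 stood at 16.4 and 13.0 CPM (log2FC −0.33, SE 0.11, adjusted p = 0.0151). On one side of LOC105051821 the adjacent gene LOC105051820 rose from 33.0 to 45.2 CPM (log2FC 0.45, SE 0.08, adjusted p = 0.000185), and the gene beyond it, LOC105051819, fell from 43.6 to 21.8 CPM (SE of the log2FC 0.11, adjusted p = 1.65e-06), just short of 2-fold. The adjacent gene on the other side, LOC140850826, was not analysed here. Another 4 genes of the DNA replication list lie on this chromosome.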
